A study of Mus musculus with 14 samples.

Results

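Mast cells store proteases in their granules, and 8 genes of that cargo are described here: the tryptases Tpsb2, Tpsab1, Tpsg1 and Prss34, the carboxypeptidase Cpa3, the proteoglycan core Srgn, the serine protease Gzmb and the activating protease Ctsc. They were taken by name from the 27975 gene names on a mouse whole-genome array, and every probe carrying the name or an older name of a member was taken. Each of the 8 genes had exactly 1 probe, and all 8 were among the 16012 genes tested.

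The arrays measured RNA of bone marrow-derived mast cells (BMMCs), immature mast cells grown from mouse bone marrow with IL-3 for 4 to 6 weeks, over 97% of them positive for Kit and FcεRIα per the labels. Cocultured cells were BMMCs kept for 4 days on a monolayer of Swiss 3T3 cells, a mouse fibroblast line, with stem cell factor at 100 ng/ml. They were then freed with trypsin, reseeded and collected as nonadherent cells, with a purity over 99% per the labels. The mice were Pla2g3 wild-type or Pla2g3 knockout, Pla2g3 encoding a secreted phospholipase A2, and both genotypes carried the same strain label, written as C57BL/6, a point and 129Sv-N3 in 1 run. Wild-type BMMCs filled 3 arrays, BMMCs labelled knockout 4, wild-type cocultured cells 4 and cocultured cells labelled knockout 3. The labels give stem cell factor for the cocultured cells only, so the fibroblasts and the factor cannot be told apart. Whether the replicates are separate mice or separate cultures is not in the labels, and the p-values therefore measure only the spread between these samples.

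Tryptases are trypsin-like serine proteases. Tpsb2 encodes the secreted tryptase mMCP-6 and Tpsab1 the secreted tryptase mMCP-7, while Tpsg1 encodes a tryptase held in the membrane and Prss34 the tryptase mMCP-11. Serglycin, the product of Srgn, carries sulfated sugar chains that bind tryptases and carboxypeptidase A3 inside the granule, and cathepsin C, the product of Ctsc, removes the activation dipeptide from several granule serine proteases, granzyme B among them. Mast cells of connective tissue are known for high levels of tryptase and carboxypeptidase A3. C57BL/6 mice are known for a splice-site change that leaves them without the mMCP-7 protein. An array probe measures RNA and not protein.

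The tryptase genes lie together on chromosome 17, so the probes that tell Tpsb2 and Tpsab1 apart are shown. Both probes are 60 bases long and are printed 5′ to 3′ as they stand in the scanner files, with capitals at the bases that differ between them. On mm9, the Tpsb2 probe lies at chr17:25504458-25504517 on the plus strand and the Tpsab1 probe at chr17:25480640-25480699 on the minus strand.
Tpsb2: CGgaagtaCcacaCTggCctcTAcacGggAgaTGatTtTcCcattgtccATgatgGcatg
Tpsab1: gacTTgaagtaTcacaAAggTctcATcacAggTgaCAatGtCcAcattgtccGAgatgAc
In their best ungapped alignment, 57 bases were paired, of which 39 (68.4%) were identical and 18 differed, and the longest identical run was 8 bases. Each probe had a reading frame without a stop codon, 2 such frames for Tpsb2 and 1 for Tpsab1. Hybridization of the RNA of one gene to the probe of the other was not tested.

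The other probes, on mm9, lie at chr17:25511199-25511258 (plus strand) for Tpsg1, chr17:25436942-25437001 (plus) for Prss34, chr3:20115674-20115733 (minus) for Cpa3, chr10:61957219-61957278 (minus) for Srgn, chr14:56877916-56877975 (minus) for Gzmb and chr7:95458436-95458495 (plus) for Ctsc. The scanner files used here do not place them in an exon or a UTR.

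Levels are log2 signals with the 75th percentile of each array set to 0, and they are comparable between arrays for 1 probe but not between probes. Each array had 17544 to 23018 of 41174 probes (42.6% to 55.9%) well above background, a call of the scanner software. Between replicates of a group, r ran from 0.898 to 0.981 across genes, which are not independent replicates. On the second principal component (18.1% of the variance), wild-type cocultured array 3 stood at -90.5 beside cocultured arrays labelled knockout 1 and 2 (-78.8 and -77.5), and cocultured array labelled knockout 3 stood at 25.9 near the other wild-type cocultured arrays (23.1 to 66.9). These 2 arrays share slide 4, which was scanned on another date, with BMMC array labelled knockout 4, which stood at -4.18. Below, the 2 arrays of slide 4 are the 2 cocultured ones. Results are given with and without these 2 cocultured arrays where they change a call. Whether their genotype labels were exchanged cannot be told from the labels, and every genotype value of cocultured cells rests on these labels. The Pla2g3 probe was well above background on 3 of 7 wild-type arrays and on 7 of 7 arrays labelled knockout. The deleted part of the gene is not given in the sources used here, so this probe does not check the labels.

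Markers of mast cells, 8 genes, had a summed log2 level of 10.2 to 11.1 over all 14 arrays, a sum weighted to the brightest genes. Of these 8, Hdc rose with coculture in both genotypes, by 3.24 and 3.72, and the other 7 did not pass. Without the 2 arrays of slide 4, 1 rose and 1 fell in wild-type cells and 3 rose in cells labelled knockout. In that setting 23.6% and 30.5% of all genes passed. Of 15 fibroblast markers tested, 13 rose with coculture in wild-type cells and 9 in cells labelled knockout, where 6.05% and 7.53% of all genes rose. Their summed log2 level ran from -1.49 to 1.12 over the BMMC arrays, from 4.03 to 8.75 over the wild-type cocultured arrays and from 3.86 to 5.99 over the cocultured arrays labelled knockout, and of the 16 markers on the array Thy1 was well above background on 0 arrays and the other 15 on 3 to 12. In wild-type cells 12 of the 15 fibroblast markers tested were well above background on no array of 1 compared group, and in cells labelled knockout 10. A gene was tested only if well above background on 3 or more arrays. A gene dim in BMMCs meets this only through arrays where it is higher, so the counts of 13 and 9 favour rises. Fewer cells of a type and less RNA per cell cannot be told apart in these bulk samples.

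Coculture of wild-type cells was compared with wild-type BMMCs, and the same comparison was made in cells labelled knockout. The aim was to see which granule genes changed with coculture. Tpsab1 and Gzmb rose in both comparisons and Tpsb2 rose in cells labelled knockout, while Cpa3, Srgn, Tpsg1, Prss34 and Ctsc passed in neither. Counts below are at an adjusted p under 0.05 in limma's moderated two-sided test, with Benjamini-Hochberg adjustment over all 16012 genes. In wild-type cells 2 of 8 members passed, both higher, against 13.1% of all genes tested (6.05% higher and 7.01% lower), and 4 had an unadjusted p under 0.05, against 26.4%. In cells labelled knockout 3 of 8 passed, all 3 higher, against 14.2% of all genes (7.53% higher and 6.66% lower), and these 3 were also the members with an unadjusted p under 0.05, against 29.2%. Without wild-type cocultured 3 and cocultured labelled knockout 3, the counts were 3 of 8 in each, against 23.6% and 30.5% of all genes. On all arrays, 5 of 8 members were without overlap between the groups in wild-type cells, against 25.5% of all genes. In cells labelled knockout 3 of 8 were, against 28.3%, both directions being counted. The median difference of the 8 members was -0.25 in wild-type cells, where that of all genes was -0.05, and 0.83 in cells labelled knockout, where that of all genes was 0.06.

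**Figure D1:**
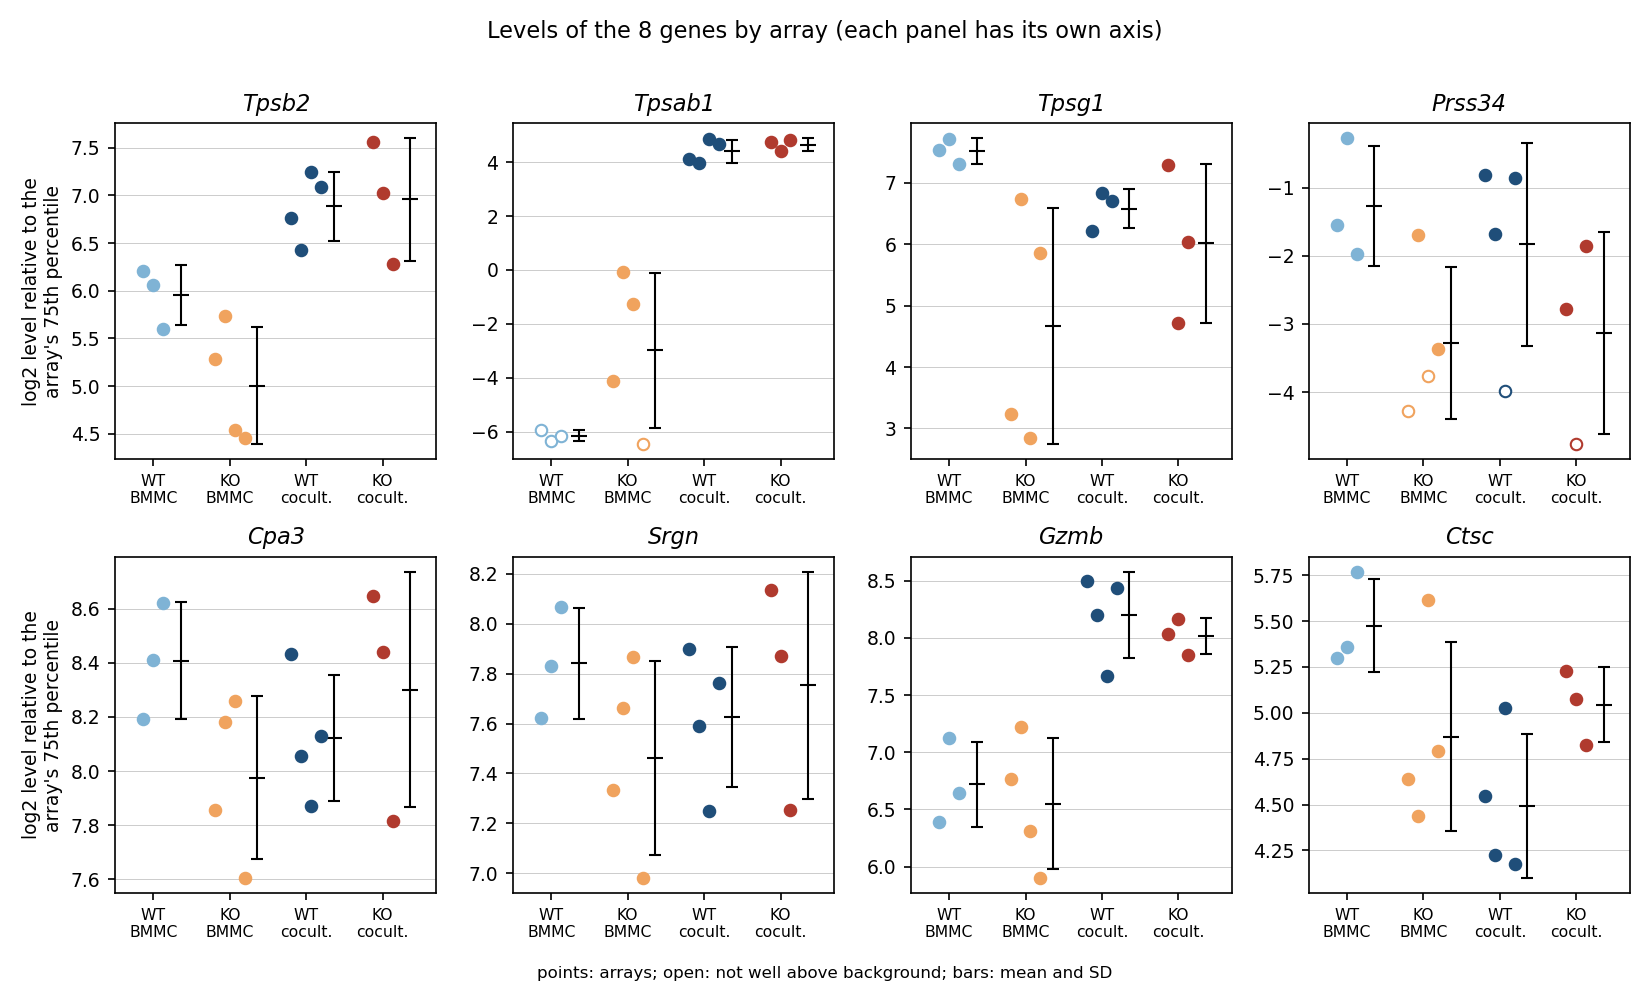
Log2 level of the 8 genes on each of the 14 arrays, with the array's 75th percentile at 0 (vertical axis), by group (horizontal axis), with 1 point per array and the group mean with its SD beside them; open points were not well above background. Tpsab1 separates all 7 cocultured arrays (3.98 to 4.85) from the BMMC arrays, the highest of which stood at -0.08, whereas Cpa3 and Srgn overlap between all groups.

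Tpsab1 showed the widest range of the 8 genes. In wild-type BMMCs its levels were -5.95, -6.33 and -6.15, and none of the 3 arrays was well above background. In wild-type cocultured cells they were 4.12, 3.98, 4.85 and 4.66, all well above background. The groups did not overlap, and the difference was at least 347-fold, the wild-type BMMC level being taken as the lowest signal called well above background on each array (limma, adjusted p = 6.58e-05; measured means -6.14 ± 0.19, SD, n = 3, and 4.40 ± 0.42, n = 4).

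Among BMMCs labelled knockout, Tpsab1 stood at -4.13, -0.08, -1.27 and -6.45, and was well above background on the first 3 of them. In cocultured cells labelled knockout it stood at 4.75, 4.40 and 4.81. The BMMC arrays of this genotype were spread over more than 6 log2 units, whereas the cocultured arrays lay close together and above all of them. The difference was 7.64 on the log2 scale (SE 1.08, limma adjusted p = 0.000904). Within slides, with 1 array against 1 array on each, it was 8.88 and 4.48 on slides 1 and 2. On slide 4 the BMMC array was not well above background. With normexp background correction, which adds an offset of 50 to each signal, the fitted difference was 4.80 in cells labelled knockout and 5.44 in wild-type cells, the latter below the bound of 8.44 on the log2 scale that stands for 347-fold.

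Among the cocultured arrays, the order of the Tpsab1 levels was not that of the fibroblast markers. The array with the highest summed fibroblast marker level, wild-type cocultured 2 at 8.75, had the lowest Tpsab1 level of the 7 cocultured arrays, 3.98. Wild-type cocultured 3, with a fibroblast sum of 4.03, had the highest, 4.85. The lowest sum of the cocultured arrays, 3.86, was on cocultured array labelled knockout 1, with Tpsab1 at 4.75. On wild-type cocultured 1 and 4 the sums were 6.87 and 7.09, with Tpsab1 at 4.12 and 4.66. On cocultured arrays labelled knockout 2 and 3 the sums were 4.57 and 5.99, with Tpsab1 at 4.40 and 4.81. Both Tpsab1 and the fibroblast sum were higher on every cocultured array than on every BMMC array. The part of fibroblast RNA in the Tpsab1 signal was not tested. Across all 14 arrays, the genes with the most similar pattern to Tpsab1, by the root mean square difference of centred log2 levels, were Nid1 (1.78), Steap1 (1.89) and Ptx3 (1.92), against a median of 4.77 over all genes.

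**Figure D2:**
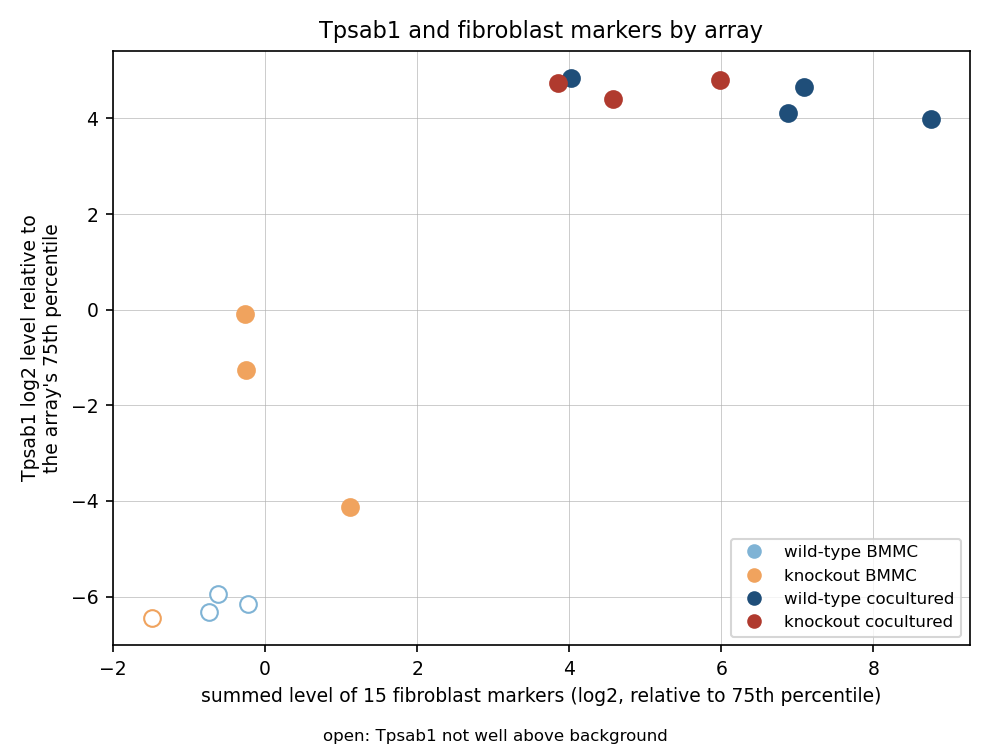
Log2 level of Tpsab1 (vertical axis) against the summed log2 level of 15 fibroblast markers (horizontal axis), both relative to the 75th percentile of the array, with 1 point per array coloured by group; open points were not well above background for Tpsab1. The 7 cocultured arrays lie between 3.98 and 4.85 for Tpsab1 while their fibroblast sums run from 3.86 to 8.75.

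Tpsb2 was well above background on all 14 arrays. Its levels were 6.20, 6.06 and 5.60 in wild-type BMMCs and 6.76, 6.43, 7.25 and 7.09 in wild-type cocultured cells. Every wild-type cocultured array stood above every wild-type BMMC array. Of all genes tested, 25.5% were without overlap between these groups, counting both directions. The difference of 0.93 (SE 0.38, 95% interval 0.11 to 1.74, a 1.90-fold difference) had an adjusted p of 0.133 in limma. It passed in 3 alternatives, quantile normalization (0.97, adjusted p = 0.0455), the authors' normalized values (1.43, adjusted p = 0.0186) and slide as a fixed block (1.23, adjusted p = 0.0439).

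In BMMCs labelled knockout the Tpsb2 levels were 5.29, 5.73, 4.54 and 4.46, and in cocultured cells labelled knockout 7.56, 7.03 and 6.28. Again the groups did not overlap, which held for 28.3% of all genes in this comparison. Tpsb2 rose 3.87-fold (1.95 on the log2 scale, SE 0.38, limma adjusted p = 0.00549), and within slides 1, 2 and 4 the differences were 2.27, 1.29 and 1.83. The response of the cells labelled knockout was larger than that of wild-type cells by 1.02 (95% interval -0.13 to 2.18), with an adjusted p of 0.996 for the interaction in limma. From low to high, the group means ran from BMMCs labelled knockout (5.01 ± 0.61) through wild-type BMMCs (5.95 ± 0.31) to wild-type cocultured cells (6.88 ± 0.36) and cocultured cells labelled knockout (6.96 ± 0.64), and the last 2 groups lay within each other's spread. The genes most like Tpsb2 in pattern were Slc2a6 (0.37), Herpud1 (0.38) and Gstt2 (0.39), against a median root mean square difference of 1.05 over all genes.

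Gzmb encodes granzyme B, a serine protease that cleaves after aspartate and is best known from cytotoxic lymphocytes. Wild-type BMMCs had Gzmb levels of 6.39, 7.12 and 6.64 and the wild-type cocultured cells 8.49, 8.20, 7.67 and 8.43. In BMMCs labelled knockout they were 6.77, 7.22, 6.31 and 5.90, and in the cocultured cells 8.03, 8.16 and 7.85. All 7 cocultured arrays stood above all 7 BMMC arrays. Of all genes, 25.5% in wild-type cells and 28.3% in cells labelled knockout were without overlap in either direction.

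The rise of Gzmb was of like size in both genotypes, 2.79-fold in wild-type cells (1.48, SE 0.33, limma adjusted p = 0.0100) and 2.76-fold in cells labelled knockout (1.46, SE 0.33, adjusted p = 0.0113). The difference between the responses was -0.016, with a 95% interval from -1.01 to 0.98, and the adjusted p of the interaction was 1.0. Within slides the rise was 1.37 and 1.68 in wild-type cells (slides 2 and 3) and 1.27, 0.94 and 1.94 in cells labelled knockout (slides 1, 2 and 4). The wild-type call was lost with median scaling (1.30, adjusted p = 0.0585) and without wild-type BMMC array 1 (1.32, adjusted p = 0.0535), and the other with normexp background correction (1.03, adjusted p = 0.0691) and with the authors' normalized values (1.02, adjusted p = 0.104). Of 8 markers of natural killer and cytotoxic T cells, Cd3e was well above background on 13 arrays, Ncr1 on 6, Klrb1c on 4, Nkg7 on 3, Prf1, the pore protein perforin, on 1, and Gzma, Cd8a and Klrk1 on 0. Of the 4 tested, 2 rose in wild-type cells and 1 in cells labelled knockout, where 6.05% and 7.53% of all genes rose. In each comparison 3 of the 4 were well above background on no array of 1 group. A gene dim in BMMCs is tested only through arrays where it is higher, so these counts favour rises. The part of these markers in the rise of Gzmb was not tested. Their summed level ran from -2.89 to -1.29 over the BMMC arrays, from -1.26 to -0.16 over the wild-type cocultured arrays and from -1.86 to -1.75 over the cocultured arrays labelled knockout. The genes closest to Gzmb in pattern were Tnik (0.27), H4c9 (0.28) and Scarb2 (0.30), against a median of 0.99.

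**Figure D3:**
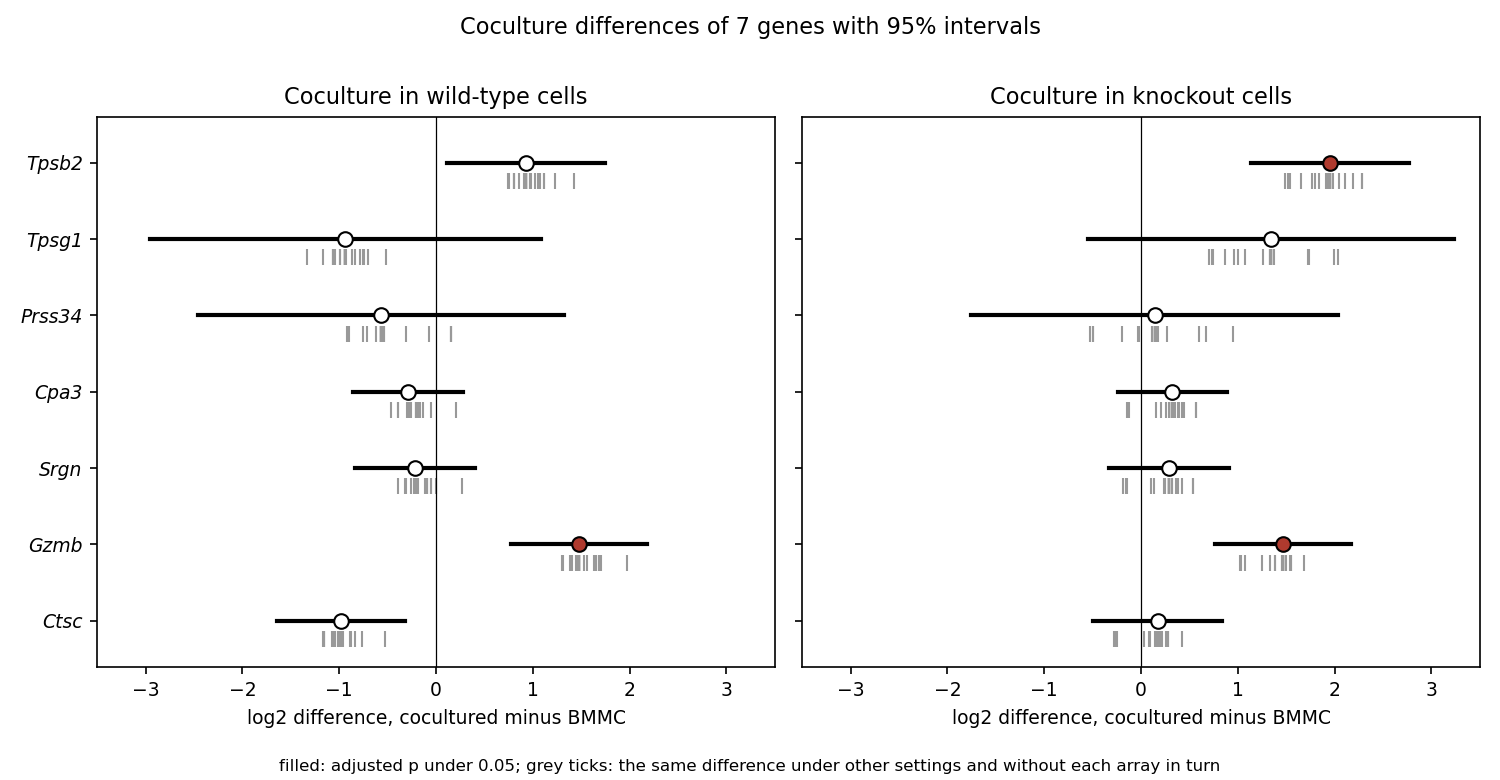
Log2 difference of cocultured cells minus BMMCs (horizontal axis) for 7 of the genes (rows), with 95% intervals, in wild-type cells and in cells labelled knockout; filled points had an adjusted p under 0.05 and grey ticks are the values under the alternative settings. Gzmb (1.48 and 1.46) and, in cells labelled knockout, Tpsb2 (1.95) passed. In wild-type cells the intervals of Tpsb2 (0.11 to 1.74) and Ctsc (-1.65 to -0.32) also leave out 0, but neither gene passed there. The intervals of Cpa3, Srgn, Tpsg1 and Prss34 span 0.

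In wild-type cells the Ctsc levels were 5.30, 5.36 and 5.77 before coculture and 4.54, 4.23, 5.03 and 4.17 after it. The groups did not overlap, which held for 25.5% of all genes, counting both directions. The difference of -0.98 (SE 0.31, 95% interval -1.65 to -0.32) had an adjusted p of 0.0526 in limma. Without wild-type cocultured 3 and cocultured labelled knockout 3 it passed (-1.16, adjusted p = 0.0151), where 23.6% of all genes did, and it also passed with quantile normalization (-1.04, adjusted p = 0.0322).

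In cells labelled knockout Ctsc stood at 4.64, 4.44, 5.61 and 4.79 before coculture and at 5.23, 5.08 and 4.82 after it, and the groups overlapped (difference 0.17, SE 0.31, limma adjusted p = 0.763). That difference was -0.25 with quantile normalization, -0.28 with normexp and -0.27 with the authors' values. The responses differed by 1.16 (95% interval 0.22 to 2.09), with an unadjusted p of 0.0198 from limma and an adjusted p of 0.996. Of all genes, 0.812% had an unadjusted p under 0.05 in this interaction, and 1 of the 8 members did. Without the 2 arrays of slide 4 named above, the difference between the responses was 1.44 (adjusted p = 0.0501).

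Cpa3 and Srgn were the most even of the 8 genes. Cpa3, which trims peptides from their carboxyl end, stood at 8.19, 8.41 and 8.62 in wild-type BMMCs, 7.86, 8.18, 8.26 and 7.61 in BMMCs labelled knockout, 8.43, 8.06, 7.87 and 8.13 in wild-type cocultured cells and 8.65, 8.44 and 7.81 in cocultured cells labelled knockout. All groups overlapped. The coculture difference was -0.29 (95% interval -0.85 to 0.28, limma adjusted p = 0.558) in wild-type cells and 0.33 (-0.24 to 0.89, adjusted p = 0.450) in cells labelled knockout.

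Srgn stood at 7.62, 7.83 and 8.07 in wild-type BMMCs and 7.33, 7.66, 7.87 and 6.98 in BMMCs labelled knockout. After coculture it stood at 7.90, 7.59, 7.25 and 7.76 in wild-type cells and at 8.14, 7.87 and 7.25 in cells labelled knockout. As with Cpa3, no group stood apart. Its coculture differences were -0.22 (95% interval -0.84 to 0.41, limma adjusted p = 0.71) and 0.29 (-0.33 to 0.91, adjusted p = 0.545). The centred levels of Srgn and Cpa3 differed over the 14 arrays by a root mean square of 0.074, against a median of 0.60 over all genes for Cpa3. That closeness was not particular to these granule genes. COX2 of the mitochondrial genome (0.070) and Rpl37a (0.075) were about as close to Cpa3. Both were closer to Srgn (0.045 and 0.069) than Cpa3 was. The signs of these small differences turned under other scalings, as given with the alternatives.

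Tpsg1 was the member that varied most among the BMMCs labelled knockout while being well above background on every array used. It stood at 7.52, 7.71 and 7.31 in wild-type BMMCs and at 3.23, 6.74, 2.85 and 5.86 in BMMCs labelled knockout. Arrays 1 and 3 of the latter were far below arrays 2 and 4, and all 4 were below every wild-type array. The spot of wild-type cocultured 1 was marked as an outlier by the scanner software and left out, and the other 3 wild-type cocultured arrays stood at 6.21, 6.82 and 6.70.

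Cocultured cells labelled knockout had Tpsg1 levels of 7.29, 4.71 and 6.03, which spanned the wild-type cocultured range. In wild-type cells every cocultured array was below every BMMC array, and 25.5% of all genes were without overlap in either direction. The Tpsg1 difference of -0.94 (SE 0.93, 95% interval -2.96 to 1.08) had an adjusted p of 0.593 in limma, which shares 1 estimate of the spread between the groups. In cells labelled knockout the difference was 1.34 (SE 0.87, adjusted p = 0.333), and on slides 1, 2 and 4 it was 4.06, -2.03 and 0.17. By mean, wild-type BMMCs were highest (7.51 ± 0.20, SD, n = 3), then wild-type cocultured cells (6.58 ± 0.32, n = 3), cocultured cells labelled knockout (6.01 ± 1.29, n = 3) and BMMCs labelled knockout (4.67 ± 1.92, n = 4), and only the first of these groups lay apart from its neighbour beyond their spreads.

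Prss34 was near the limit of detection. It was well above background on 10 of 14 arrays, with levels of -1.55, -0.28 and -1.97 in wild-type BMMCs and -4.28, -1.69, -3.76 and -3.37 in BMMCs labelled knockout, of which the first and the third were not well above background. In wild-type cocultured cells it stood at -0.81, -1.68, -3.99 and -0.85, and in cocultured cells labelled knockout at -2.79, -4.76 and -1.86, where the -3.99 and the -4.76 were not well above background. The groups overlapped in both coculture comparisons, with differences of -0.57 (SE 0.88, limma adjusted p = 0.755) and 0.14 (SE 0.88, adjusted p = 0.940).

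The 3 arrays labelled knockout with the lowest Tpsg1 levels, BMMC 1, BMMC 3 and cocultured 2, were also the 3 arrays labelled knockout on which Prss34 was not well above background. The fourth array without Prss34 above background, wild-type cocultured 3, had a Tpsg1 level of 6.82. This is a description over single arrays, and no test was made of it.

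Genotypes were compared within BMMCs and within cocultured cells, as the study's title asks what loss of the phospholipase did to fibroblast-directed maturation. In BMMCs 0 of 8 members passed at an adjusted p under 0.05 in limma, as did 0 of all 16012 genes (0%), and 4 of 8 had an unadjusted p under 0.05, against 1.09% of all genes. Tpsg1 was lower in BMMCs labelled knockout by 2.85 on the log2 scale in measured means (log2 difference -2.85, SE 0.87, unadjusted p = 0.00659, adjusted p = 1.0), and it was the 1 member without overlap, which 4.23% of all genes showed. Within slides 1, 2 and 3 its difference was -4.29, -0.98 and -4.46. The differences of Prss34 (-2.01, unadjusted p = 0.0389 in limma) and Tpsb2 (-0.95, unadjusted p = 0.0259) were also negative, and both had an adjusted p of 1.0.

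Tpsab1 differed the other way, with 3 of 4 arrays labelled knockout and 0 of 3 wild-type arrays well above background, a difference of at least 2.08-fold (unadjusted p = 0.0122 and adjusted p = 1.0 in limma). With replicate number as a block among the BMMCs, the difference of Tpsg1 was -3.24.

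In cocultured cells 0 of 8 members were without overlap between the genotypes, against 1.71% of all genes, and 0 had an unadjusted p under 0.05 in limma, against 3.77%. After adjustment 0 members and 0 of 16012 genes passed (0%). The differences ran from -1.30 (Prss34, 95% interval -3.20 to 0.59) and -0.56 (Tpsg1, -2.59 to 1.46) to 0.55 (Ctsc, -0.11 to 1.21). For Tpsb2 the difference was 0.073 (-0.74 to 0.89) and for Gzmb -0.18 (-0.89 to 0.52). Without wild-type cocultured 3 and cocultured labelled knockout 3, 24.6% of all genes passed and 1 of 8 members did. That member was Prss34 (-2.66, SE 0.80, limma adjusted p = 0.0349), with 1 of the 2 remaining arrays labelled knockout not well above background. Neither with nor without these arrays did a member pass in the interaction, where 0% and 12.1% of all genes passed.

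The tryptase genes lie close together. The Tpsb2 probe lies at -6.74 kb, the Tpsab1 probe at -30.6 kb and the Prss34 probe at -74.3 kb from the Tpsg1 probe on mm9. Within 150 kb of the Gzmb probe, all 4 other transcripts tested rose in both genotypes. They were Gzmc, Gzmd, Gzme and 1 transcript without a gene symbol. Of all genes, 6.05% rose in wild-type cells and 7.53% in cells labelled knockout. Probes of Gzmf, Gzmg, Gzmn and Atp12a in this window, well above background on 0 to 2 arrays, were not tested. Gzmd and Gzme were well above background on 8 arrays each. A gene dim in BMMCs passes the filter only through arrays where it is higher, so this count favours rises.

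**Figure D4:**
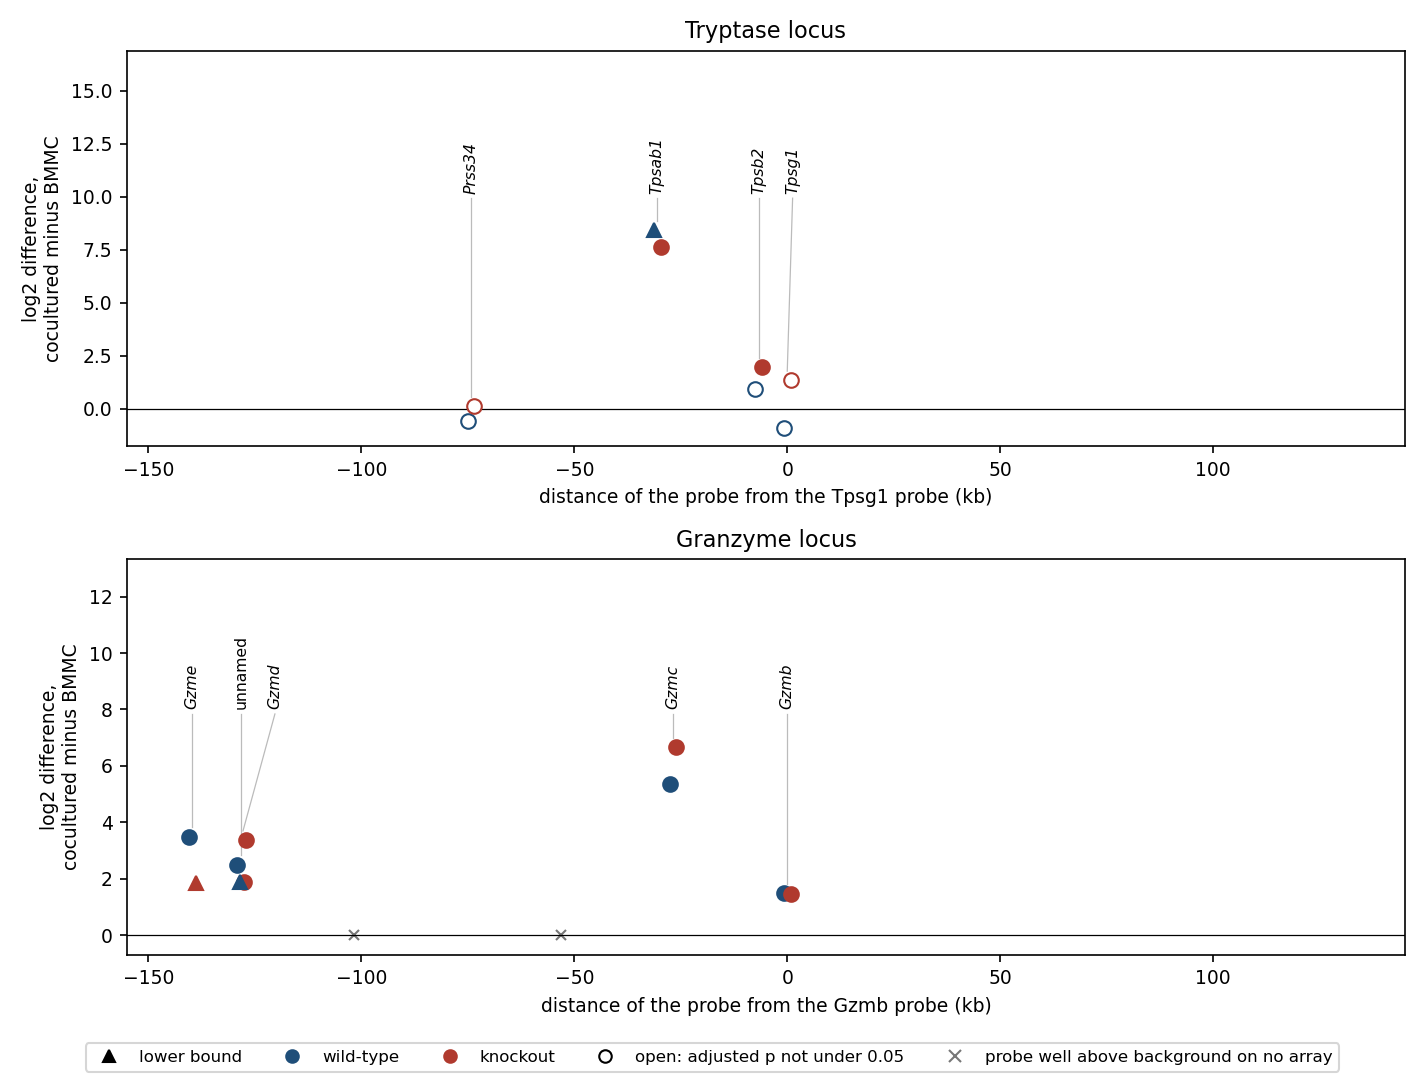
Log2 difference of cocultured cells minus BMMCs (vertical axis) by distance of the probe in kb (horizontal axis). Wild-type cells and cells labelled knockout have separate points. The top panel holds the 4 tryptase genes, with distances from the Tpsg1 probe. The bottom panel holds the transcripts tested near the Gzmb probe, with distances from that probe. Filled points had an adjusted p under 0.05, triangles are lower bounds and crosses (bottom) are probes well above background on no array. In the top panel Tpsab1 stands highest, at no less than 8.44 in wild-type cells and at 7.64 in cells labelled knockout, and in the bottom panel all the transcripts tested lie above 0.

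Other granule proteases and granzymes come from lists chosen by name. In each list, here and below, a gene dim in BMMCs passes the filter only through arrays where it is higher. For this list and those below, 6.05% of all genes rose and 7.01% fell in wild-type cells. In cells labelled knockout 7.53% rose and 6.66% fell. Leaving out the 2 arrays of slide 4, 23.6% and 30.5% of all genes passed in the 2 coculture comparisons. Of 4 genes tested from 10 granzymes and perforin, 3 rose in wild-type cells and 3 in cells labelled knockout, where 6.05% and 7.53% of all genes rose. These 3 were Gzmc, Gzmd and Gzme, already counted near Gzmb, so the limit given there holds here too. The list median was 3.81 and 3.76, or 2.69 and 2.61 with genes that have only a bound set to it. The counts were the same without the 2 arrays of slide 4. Gzmc rose by 5.35 in wild-type cells (SE 0.33, limma adjusted p = 9.68e-07) and by 6.67 in cells labelled knockout (SE 0.33, adjusted p = 2.98e-07). Gzmd, well above background on 0 of 3 wild-type BMMC arrays, was at least 3.69-fold higher after coculture of wild-type cells (adjusted p = 0.00162), and Gzme, well above background on 0 of 4 BMMC arrays labelled knockout, at least 3.62-fold higher after coculture there (adjusted p = 0.00490). The granzymes of this cluster are close relatives, and hybridization between them was not tested.

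Of 8 chymases and other granule proteases tested, 5 rose in wild-type cells and 3 in cells labelled knockout, with a list median of 3.55 and 3.26 (3.55 and 2.68 with bounds). Without the 2 arrays of slide 4, 6 rose in each, where 23.6% and 30.5% of all genes passed. Mcpt8, a protease best known from basophils, rose by 3.63 in cells labelled knockout (SE 0.48, limma adjusted p = 0.000561). Mcpt2, a chymase-type protease, rose by 4.57 in wild-type cells (SE 1.02, adjusted p = 0.0109), and Mcpt9, well above background on 0 wild-type BMMC arrays, was at least 1.58-fold higher there (adjusted p = 0.00892). Of 5 basophil markers, Cd200r3 and Il3ra were well above background on 14 arrays, Mcpt8 on 13, Ccr3 on 9 and Itga2 on 0, and the summed level of the 4 basophil markers tested, Mcpt8 among them, was 5.43 to 6.03 in BMMCs and 5.59 to 6.64 in cocultured cells.

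Tryptase-type proteases outside the 8 genes were mostly dim, and 4 of 12 on the array were tested. In each genotype 1 rose and 1 fell. Prss41 rose by 2.71 in cells labelled knockout (SE 0.41, limma adjusted p = 0.00134) and by 1.80 in wild-type cells (adjusted p = 0.0123), while Prss53, well above background on 0 cocultured arrays, was at least 1.05-fold lower in cells labelled knockout (adjusted p = 0.00798) and at least 1.37-fold lower in wild-type cells (adjusted p = 0.0297). Without the 2 arrays of slide 4, 2 fell in wild-type cells.

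Of 12 lysosomal cathepsins and related proteases, 0 passed in wild-type cells, where 13.1% of all genes did, and 2 rose in cells labelled knockout, where 7.53% did, Ctsb by 1.59 (SE 0.41, limma adjusted p = 0.0234) and Ctsd by 1.20 (SE 0.31, adjusted p = 0.0244).

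Among 11 protease inhibitors, 2 rose and 1 fell in wild-type cells, and 5 rose and 1 fell in cells labelled knockout. Serpina3g, a serpin of haematopoietic cells, fell by 4.08 (limma adjusted p = 3.35e-05) and 4.30 (SE 0.38, adjusted p = 2.90e-05). Cstb, the cathepsin inhibitor cystatin B, rose by 1.70 (adjusted p = 0.0236) and 2.79 (SE 0.44, adjusted p = 0.00168). Serpinb8, well above background on 0 BMMC arrays, was at least 1.96-fold higher in wild-type cells (adjusted p = 0.00169). Without the 2 arrays of slide 4, the counts were 4 higher and 3 lower in wild-type cells and 8 higher and 1 lower in the others.

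Proteoglycan cores other than serglycin rose in 8 of 14 cases in wild-type cells and in 5 of 14 in cells labelled knockout, and without the 2 arrays of slide 4 in 10 and 6. In the 2 main comparisons 6 and 4 of the 14 were well above background on no array of 1 group. The limit given for the granzymes therefore holds here too. Dcn, the decorin core and itself 1 of the fibroblast markers, was at least 146-fold higher in wild-type cells (limma adjusted p = 9.34e-06), and Sdc2, a cell-surface heparan sulfate proteoglycan, at least 10.3-fold (adjusted p = 0.000393). Sdc1 rose by 4.41 (SE 0.76, adjusted p = 0.00238). The fibroblast markers rose in the same arrays, to a summed level of 4.03 to 8.75 in wild-type cocultured cells, and their part in these rises was not tested. Of 28 enzymes that build or sulfate the sugar chains, 1 rose and 2 fell in wild-type cells, and 1 rose and 1 fell in cells labelled knockout. Chst12, a chondroitin sulfotransferase, fell by 1.46 in wild-type cells (SE 0.29, adjusted p = 0.00607), and Chsy1, which builds chondroitin chains, fell by 2.04 (SE 0.47, adjusted p = 0.0123). In the same comparison Csgalnact1, well above background on 0 wild-type BMMC arrays, was at least 5.93-fold higher (adjusted p = 0.00934). Without the 2 arrays of slide 4, 4 of these enzymes rose and 2 fell in wild-type cells, where 23.6% of all genes passed. In cells labelled knockout 2 rose and 6 fell, where 30.5% of all genes passed.

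Of 17 genes for amine loading and granule sorting, 2 rose in wild-type cells and 3 in cells labelled knockout, and without the 2 arrays of slide 4 the counts were 3 higher with 1 lower, and 8 higher with 1 lower. Hdc, which makes histamine, rose by 3.24 (limma adjusted p = 0.00128) and by 3.72 (SE 0.50, adjusted p = 0.000670). Rab27b, a GTPase of granule exocytosis, rose by 1.23 in cells labelled knockout (SE 0.33, adjusted p = 0.0288) and Igf2r, the mannose 6-phosphate receptor, by 3.84 in wild-type cells (adjusted p = 0.0363).

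Of 13 transcription factors of mast cells, 1 rose and 2 fell in each genotype, and without the 2 arrays of slide 4 the counts were 2 higher and 2 lower, and 2 higher and 3 lower. Gata1, which binds GATA motifs, fell by 1.99 in wild-type cells (SE 0.23, limma adjusted p = 0.000171). Tfe3, a factor of the Mitf family, rose by 1.35 there (SE 0.23, adjusted p = 0.00246), and Stat5b fell by 1.13 in cells labelled knockout (SE 0.29, adjusted p = 0.0215).

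Because GATA factors are known regulators of mast cell genes, the 250 bases before each annotated start were searched for GATAA on either strand (TTATC as its reverse complement). RefSeq sequence on GRCm38.p6 was held for 6 of the 8 genes, with 8 starts, of which 3 had the motif, each once. The genes without it were Tpsb2 and Tpsab1. Of all 32851 starts, 7418 (22.6%) had it. The windows with the motif are shown 5′ to 3′ in the direction of transcription, with the motif in capitals.
Tpsg1, chr17:25369023-25369272, plus strand: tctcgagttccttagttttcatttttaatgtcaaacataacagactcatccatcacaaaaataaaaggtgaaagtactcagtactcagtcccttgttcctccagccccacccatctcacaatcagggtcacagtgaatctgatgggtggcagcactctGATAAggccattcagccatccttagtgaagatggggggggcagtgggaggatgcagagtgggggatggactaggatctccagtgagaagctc
Prss34, chr17:25298144-25298393, plus strand: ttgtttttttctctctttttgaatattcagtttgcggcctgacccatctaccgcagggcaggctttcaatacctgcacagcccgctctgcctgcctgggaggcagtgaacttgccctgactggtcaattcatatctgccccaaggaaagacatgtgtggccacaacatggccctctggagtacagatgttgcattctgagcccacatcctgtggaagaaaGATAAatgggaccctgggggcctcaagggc
Cpa3, chr3:20242182-20242431, minus strand: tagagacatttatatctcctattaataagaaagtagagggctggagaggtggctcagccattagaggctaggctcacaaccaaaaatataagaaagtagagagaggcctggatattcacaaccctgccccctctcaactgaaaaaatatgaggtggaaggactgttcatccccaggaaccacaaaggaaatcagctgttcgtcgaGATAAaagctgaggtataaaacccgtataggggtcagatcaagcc
The motif lay 92 bases from the start in Tpsg1, 30 in Prss34 and 45 in Cpa3. The windows of Srgn, Gzmb, Ctsc and the second start of Tpsg1 did not hold these letters. A match is a description of the sequence and no evidence of binding. None of the 3 genes passed in either coculture comparison, with differences from -0.94 to 1.34. Of the members that passed in a coculture comparison, Tpsb2 and Tpsab1 had no window to search and the window of Gzmb held no match. Whether the motif goes with the response was therefore not tested.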

How the data were processed

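The arrays were single-colour Agilent arrays labelled from 450 ng of RNA. Per the file headers, the deposited intensity values came from Agilent Feature Extraction 9.5.1.1, in which spatial detrending and multiplicative detrending were switched on and further background correction off. An annotated table of 25193 probes was deposited too, with raw and normalized intensity values, and its normalized values served as an alternative on the log2 scale (floor 5). Its 14 call columns were not used, nor was a deposited table of selected probes, in which 8 of 14 intensity columns hold the values of another array.

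Log2 of the scanner's processed signal was scaled by taking off each array's 75th percentile. Outlier spots, 74 to 326 on an array, were dropped, and replicate spots of a probe were averaged. Between 0 and 3 spots per array were saturated. A probe was kept if 3 or more arrays called it well above background, and a gene was represented by its brightest probe. Differences were tested two-sided in 1 fit of the 4 groups with limma 3.58.1 in R 4.3.3 (data.table, version 1.17.8), in 5 comparisons, with Benjamini-Hochberg adjustment over all genes and calls at an adjusted p under 0.05. "Rose" and "fell" refer to that threshold. The fit was tested on simulated data. Where a group was well above background on no array, the fold is a lower bound against the lowest signal so called on each array. The number of arrays limits the precision.

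The members and the gene lists were chosen with earlier results of these data known. All members are named, and of each list up to 3 genes that passed with the lowest adjusted p in a coculture comparison, and for a member that passed the 3 genes with the most similar pattern. Genes of the list on natural killer and T cell, basophil and fibroblast markers at 0 or 1 array were chosen after their values were seen. So were the genes set beside Cpa3 and Srgn by pattern and the arrays with low Tpsg1. Carboxypeptidases other than Cpa3 and the neighbours of the tryptase genes are not reported here. Alternatives covered scaling, background correction, the authors' values, the filter, the probe choice, the slide, the pairing, slide 4 and each array left out. Keeping outlier spots, leaving out the cocultured pair of slide 4 and the block within BMMCs were added after the data were seen.

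Same-numbered BMMC arrays deviated together from their group means (r = 0.197, 0.497 and 0.491 across genes for numbers 1 to 3), and each pair also shares a slide. Same-numbered cocultured arrays did not (r = -0.429, -0.150 and -0.544). The numbers were therefore taken to pair the BMMCs only.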

Additional observations from a re-analysis of the deposited data

How the results depend on the processing

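Under the planned and added settings other than leaving out 1 array, 488 of 546 single-gene values kept their direction and side of the threshold, 3 lost the call, 10 gained it and 45 changed sign. When each array was left out in turn, the figures were 537, 1, 3 and 19 of 560. No member changed sign in a comparison in which it had passed. The cause of the changes was not tested. Arrays and cells called knockout here are those labelled so.

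Members that passed in wild-type coculture numbered 2 of 8, but 1 with median scaling, 4 with quantile normalization and 1 to 3 when 1 array was left out. The 1 came without wild-type BMMC 1. In the genotype comparison of cocultured cells 0 passed, but 1 (Prss34) without slide 4 and 1 without the cocultured pair of slide 4. Without slide 4 its adjusted p was 0.0453. Ctsc in wild-type coculture also passed with the filter on every array of a group (adjusted p = 0.0437), slide as a random block (0.0398), without slide 4 (0.0209), without wild-type cocultured 3 (0.0217), without knockout BMMC 3 (0.0286) and without knockout cocultured 3 (0.0462).

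Signs changed in small differences. In coculture of knockout cells, quantile normalization, normexp and the authors' values gave -0.15, -0.13 and -0.12 for Cpa3, -0.25, -0.28 and -0.27 for Ctsc, and -0.14, -0.18 and -0.16 for Srgn. In the genotype comparison of cocultured cells they gave -0.079, -0.37 and -0.23 for Cpa3, -0.10, -0.43 and -0.28 for Srgn, and -0.24, -0.46 and -0.33 for Tpsb2, which was -0.24 with slide as a fixed and -0.028 as a random block. In the interaction they gave -0.014, -0.076 and -0.33 for Cpa3 and -0.087, -0.18 and -0.43 for Srgn. Normexp and the authors' values gave -0.26 and -0.14 for Tpsab1 in cocultured genotypes, and normexp 0.25 for Prss34. The authors' values gave 0.20 for Cpa3 and 0.27 for Srgn in wild-type coculture and 0.099 and 0.15 in BMMC genotypes. Gzmb in BMMC genotypes was 0.085 with quantile normalization, 0.36 with the authors' values and 0.048 without slide 4. With median scaling Gzmb was 0.086 in cocultured genotypes and 0.20 in the interaction. Prss34 without slide 4 was 0.15, -0.53 and -0.68 in wild-type coculture, knockout coculture and the interaction, and without the cocultured pair 0.15, -0.49 and -0.65.

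With 1 array left out, differences that changed sign ran from -0.92 to 0.15 (Prss34, wild-type coculture), -0.49 to 0.95 (Prss34, knockout coculture), -0.39 to 0.048 (Gzmb, BMMC genotypes), -0.065 to 0.38 (Srgn), -0.23 to 0.41 (Tpsb2) and -1.21 to 0.087 (Tpsg1) in cocultured genotypes, and -0.23 to 0.21 (Gzmb) and -0.0090 to 1.52 (Prss34) in the interaction. With the replicate block over all arrays (consensus correlation -0.10), 2, 3, 0, 0 and 0 members passed in the 5 comparisons. With the replicate block within the BMMCs 2, 3, 0 and 0 members passed in the 2 coculture comparisons, the BMMC genotypes and the interaction, and Gzmb in the BMMC genotypes turned from -0.17 to 0.048.

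Over all genes, 2090 passed in wild-type coculture, against 903 with normexp, 845 with the authors' values, 3894 without slide 4, 3774 without the pair, and 1221, 1175 and 1142 without wild-type BMMC 1, 2 and 3, and 1172 with the replicate block within the BMMCs. In knockout coculture 2272 passed, against 1424 with median scaling, 901 with normexp, 651 with the authors' values, 1374 without a filter, 4576 without slide 4, 4890 without the pair, and 1334, 1328 and 1084 without knockout BMMC 1, knockout BMMC 2 and knockout cocultured 1, and 1509 with the replicate block within the BMMCs. In BMMC genotypes 0 passed, against 1 with quantile normalization, 1 with the filter on every array of a group and 2 without knockout BMMC 3. In cocultured genotypes 0 passed, against 4125 without slide 4 and 3938 without the pair, and in the interaction 0 against 1679 and 1940. The share higher among those that passed was 46.3% in wild-type coculture but 71.2% with the authors' values, and 53.0% in knockout coculture but 31.3% with normexp and 29.6% with the authors' values. Median scaling moved the median of all genes from -0.05 to -0.24 in wild-type coculture, from 0.03 to 0.30 in cocultured genotypes and from 0.12 to 0.33 in the interaction, and normexp moved it from 0.06 to 0.18 in knockout coculture. With the authors' values Prss34 was at the floor on every array, and Tpsab1 was at the floor in both BMMC groups, so no value is given. Signal over background limited Prss34 and Tpsab1.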
